A study of Homo sapiens with 3 samples.

Results

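Aminoacyl-tRNA synthetases are the enzymes that join each amino acid to its tRNA, and the 35 genes described here comprise 19 for the cytosol and 16 for the mitochondrion. They were taken by name from the 19856 protein-coding genes of GENCODE release 44 on hg19, and each was described by the ETS1 peaks around it. A peak was called promoter-proximal when its midpoint lay from 5 kb upstream to 1 kb downstream of the canonical transcription start site (TSS), the start of the transcript that the annotation marks as representative. Peaks with a midpoint elsewhere in the gene body and peaks within 50 kb of either gene end were then counted separately. KARS1 and GARS1, which also supply the mitochondrion with their enzymes, were counted with the cytosolic genes.

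ETS1 binding was measured by ChIP-Seq in untreated SCC25, an established squamous carcinoma line of the tongue. Antibody C20 was used in 2 of the 3 immunoprecipitated samples and antibody 501A in the third, with no ETS1-depleted or control group among them. The measurement is 1 consensus list of 26970 peak positions, pooled over the 3 samples by IDR (Irreproducible Discovery Rate), which retains peaks ranked reproducibly between replicates. The list has 3 columns and carries no signal, summit or value per sample, so that neither a spread between replicates nor a difference between antibodies could be measured, and the depth behind a single peak is unknown.

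Every protein made in a cell passes through these enzymes, and their genes are active in nearly all tissues. Several cytosolic synthetases assemble into a multisynthetase complex, and the mitochondrial enzymes are encoded in the nucleus and imported. ETS1 belongs to a family of transcription factors that bind a GGAA core, for which CCGGAA is a common form at promoters rich in CpG.

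To show where the peaks lie, promoter sequences are printed first, all of hg19, 5′ to 3′, with CCGGAA or its complement TTCCGG in capitals unless another motif is named. Every base of them lies inside a promoter-proximal peak. The first pair spans shared promoters. The interval between the TSSs of KARS1 and TERF2IP, chr16:75681564-75681670 on the plus strand, holds 1 match, and the interval from SARS2 to MRPS12, chr19:39421404-39421590 on the plus strand, holds 1 match, whose last base is the MRPS12 start.
KARS1 to TERF2IP: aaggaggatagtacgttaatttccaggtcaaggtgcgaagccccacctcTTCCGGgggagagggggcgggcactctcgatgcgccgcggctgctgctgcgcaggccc
SARS2 to MRPS12: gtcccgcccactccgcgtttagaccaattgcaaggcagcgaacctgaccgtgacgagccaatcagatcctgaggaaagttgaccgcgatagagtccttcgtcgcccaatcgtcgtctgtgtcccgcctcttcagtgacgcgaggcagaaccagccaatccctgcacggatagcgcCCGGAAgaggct

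The next set shows repeated ETS cores upstream of genes on the coding strand. PARS2, at chr1:55230197-55230426 on the minus strand, carries the palindrome TTCCGGAA at 2 places, and each palindrome was read as a match on both strands. MARS2, at chr2:198570023-198570092 on the plus strand, has matches on opposite strands that abut. FARSA, at chr19:13044526-13044615 on the minus strand, has a tandem repeat, and TARS2, at chr1:150459715-150459794 on the plus strand, has a facing pair.
PARS2: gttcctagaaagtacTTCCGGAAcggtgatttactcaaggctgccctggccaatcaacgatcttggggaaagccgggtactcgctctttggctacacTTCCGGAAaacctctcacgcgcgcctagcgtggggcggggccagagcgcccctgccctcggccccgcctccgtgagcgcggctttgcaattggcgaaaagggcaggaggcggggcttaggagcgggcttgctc
MARS2: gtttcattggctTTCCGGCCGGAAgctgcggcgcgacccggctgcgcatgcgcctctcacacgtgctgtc
FARSA: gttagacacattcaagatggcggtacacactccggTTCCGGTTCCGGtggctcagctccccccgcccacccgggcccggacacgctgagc
TARS2: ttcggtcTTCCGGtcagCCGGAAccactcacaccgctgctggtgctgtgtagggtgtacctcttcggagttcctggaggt

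Short sites of the same core are shown where other transcripts of the gene begin upstream. The promoter shared by HARS1 and HARS2 held 3 matches, here read on the HARS1 strand at chr5:140071016-140071045 (far) and chr5:140070956-140070981 (near). The others are NARS1 at chr18:55289161-55289184, CARS1 at chr11:3078654-3078677 and RARS2 at chr6:88299742-88299765, all on the minus strand.
HARS1 far: ttcggcacTTCCGGgaggagCCGGAAataa
HARS1 near: acccagcgactcgatagCCGGAAgtc
NARS1: tctctggatCCGGAAgttgcctct
CARS1: ggcgcgacTTCCGGggcggcggtt
RARS2: gcgggtTTCCGGcgcggggaggcg

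The last set shows stretches without CCGGAA. In GARS1, at chr7:30634450-30634473 on the plus strand, the capitals mark the complement of TGATGNAAT, a form of the C/EBP-ATF response element. The GARS1 promoter did hold 1 CCGGAA match, 130 bp upstream of the TSS and outside the printed stretch. In LARS1, at chr5:145562313-145562393 on the minus strand, they mark TGACGTCA, the cAMP response element, since this promoter had no CCGGAA. FARSB, at chr2:223520812-223520931 on the minus strand, had none of the 8 motifs searched.
GARS1: ttacgcggcgATTTCATCAtgctc
LARS1: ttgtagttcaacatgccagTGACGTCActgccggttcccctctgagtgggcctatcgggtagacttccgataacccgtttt
FARSB: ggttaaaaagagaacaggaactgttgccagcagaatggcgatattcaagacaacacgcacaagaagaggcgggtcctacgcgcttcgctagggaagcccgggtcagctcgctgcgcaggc

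To examine how widely ETS1 occupied these genes, promoter-proximal peaks were counted first. All 35 synthetase genes had one, 19 of 19 cytosolic and 16 of 16 mitochondrial genes (100%, 95% Wilson interval 90.1 to 100 for the 35). Over all protein-coding genes the share was 56.0%, and among those with a CpG-rich promoter it was 74.2%. The intervals here and below cover counting over genes only, and genes are not replicates of the experiment. The cytosolic and mitochondrial shares differed by 0 points, with a 95% Newcombe interval from -16.8 to 19.4 points, so that differences inside that range could not be seen with genes this few. In each of the 13 amino acids with a gene of its own in either compartment, both genes had a peak.

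The peak also covered the canonical TSS in 34 of 35 genes (97.1%, interval 85.5 to 99.5). The share was 52.3% of all protein-coding genes and 92.4% of those with a promoter-proximal peak, the latter inside that interval. Among the 35 the exception was WARS1, the tryptophanyl-tRNA synthetase, a gene known to be induced by interferon. Its peak was 1309 bp wide, with its midpoint 787 bp upstream of the canonical TSS and its near edge 133 bp upstream. Of the 35 annotated WARS1 start sites, 20 lay under this peak, from 200 to 996 bp upstream of the canonical one. The same peak also covered an annotated transcript start of another coding gene, WDR25. WARS1 was also among the 4 synthetase genes whose promoter was not CpG-rich, with a CpG observed/expected ratio of 0.355, the lowest of the 35. The others were IARS1 at 1.05 with 49.9% GC, RARS1 at 0.593 with 55.7% GC and TARS2 at 0.584 with 49.7% GC. All 4 had a promoter-proximal peak, and the share over all genes without a CpG-rich promoter was 21.9%. The promoters compared are not alike, because IARS1, RARS1 and TARS2 missed the cutoffs (ratio 0.6, GC fraction 0.5) only narrowly. The median ratio over all genes without a CpG-rich promoter was 0.274.

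**Figure D1:**
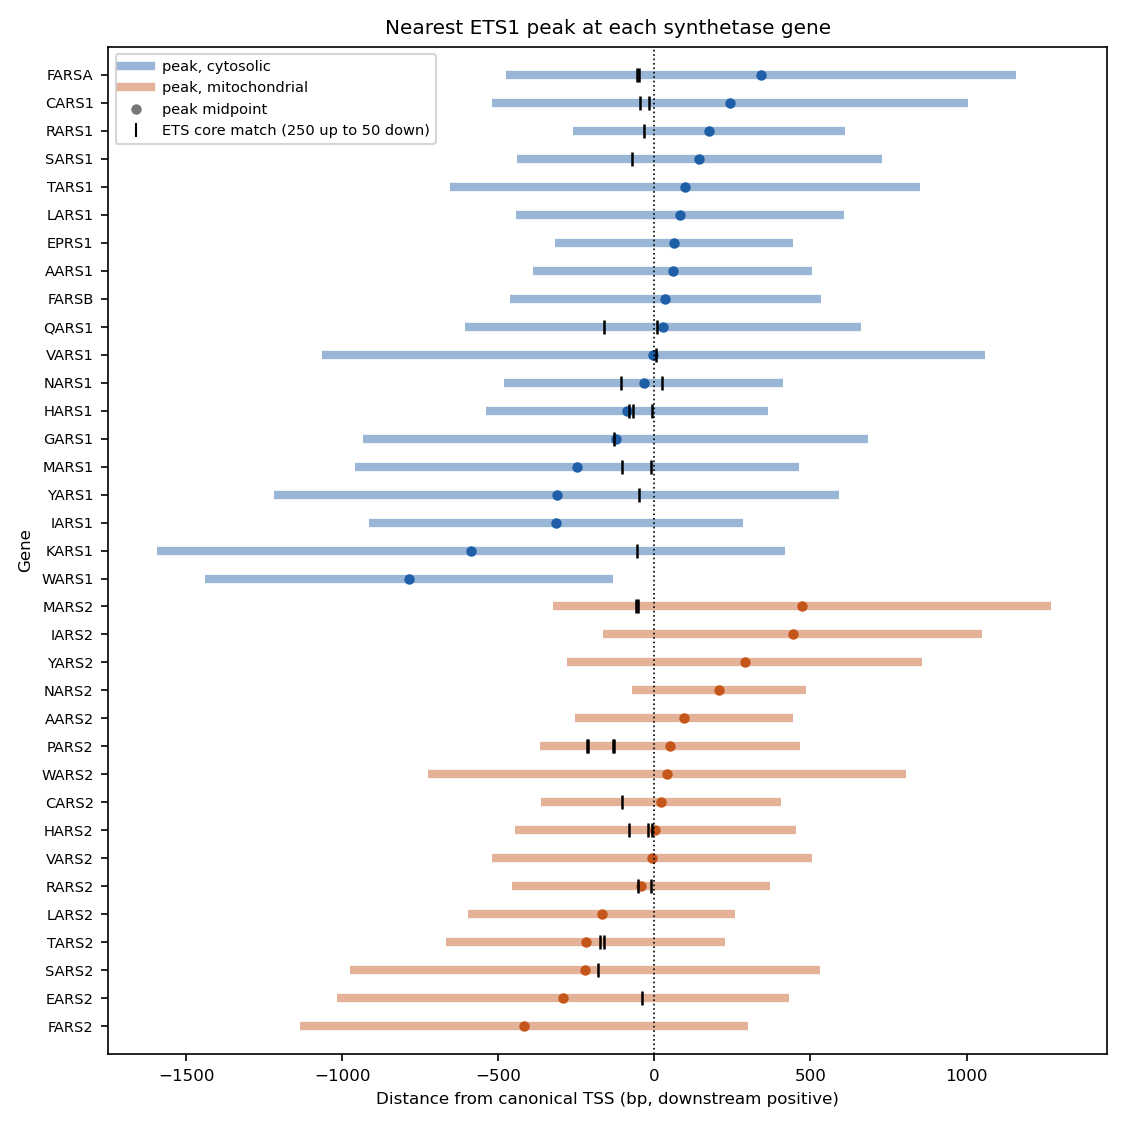
Extent of the promoter-proximal peak nearest the canonical TSS of each of the 35 synthetase genes (x axis, bp from the TSS; bars, peaks; points, midpoints; black ticks, CCGGAA matches on either strand), ordered by midpoint within each compartment. The bars cross the dotted TSS line in 34 of 35 genes, and the WARS1 bar ends 133 bp upstream.

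The midpoints lay close to the TSS on either side of it. The absolute distance had a median of 144 bp over the 35 genes, from 3 to 787 bp, and 187 bp over the 11111 protein-coding genes with such a peak. The midpoint was within 500 bp of the TSS in 33 of 35 synthetase genes, against 83.6% of those genes. KARS1, the lysyl-tRNA synthetase, was the only other gene beyond 500 bp, at 588 bp upstream, and its peak reached across the neighbouring promoter. The midpoint was upstream in 16 genes and downstream in 19, of which 15 fell in exon 1 and 4 in intron 1 (CARS1, FARSA, RARS1 and IARS2).

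The genes of the multisynthetase complex are EPRS1, IARS1, KARS1, LARS1, MARS1, QARS1 and RARS1, which together serve glutamate, proline, isoleucine, lysine, leucine, methionine, glutamine and arginine. Their 7 peaks were from 761 bp (EPRS1) to 2012 bp (KARS1) wide, with a median of 1198 bp. LARS1, the leucyl enzyme that is also known as a leucine sensor, had a peak of 1053 bp that stood at line 235 of the list, the earliest of the 35. MARS1, which charges the tRNA that starts translation, had a peak of 1423 bp at line 716. QARS1 stood at the other end, with a peak of 1270 bp at line 21252. All 7 peaks covered the TSS, with midpoints from 588 bp upstream (KARS1) to 175 bp downstream (RARS1).

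The other 12 cytosolic genes had peaks from 895 bp (NARS1) to 2126 bp (VARS1), with a median of 1408 bp. VARS1, the valyl enzyme, had the widest peak of the 35, and its midpoint lay 3 bp upstream of the TSS. YARS1, the tyrosyl enzyme, followed KARS1 in width with 1811 bp. FARSA, which encodes the alpha subunit of the phenylalanyl enzyme, had a peak of 1633 bp, and GARS1, the glycyl enzyme, one of 1619 bp. FARSB, the beta subunit of the same phenylalanyl enzyme as FARSA, had a narrower peak of 999 bp. The subunits also stood far apart in the list, FARSA at line 276 and FARSB at line 16912.

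FARSA was the only synthetase gene with 2 promoter-proximal peaks (2.86%, against 5.58% of all protein-coding genes). The nearer one had its midpoint 341 bp downstream of the TSS. The other, 3353 bp wide with its midpoint 4282 bp upstream, lay within 1 kb of the start of CALR, which encodes the chaperone calreticulin.

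The 16 mitochondrial genes had peaks from 560 bp (NARS2) to 1598 bp (MARS2), with a median of 965 bp. MARS2, SARS2 (1506 bp) and WARS2 (1534 bp) exceeded 1500 bp. Over both compartments 10 of 35 peaks did (28.6%), against 39.8% of all genes with a promoter-proximal peak. AARS2, the mitochondrial alanyl enzyme, had a peak of 701 bp, and CARS2, the cysteinyl enzyme, one of 769 bp. The 35 genes together had a median of 1170 bp and all genes with a promoter-proximal peak 1336 bp, so that the synthetase median was not above that of all such genes. The cytosolic median was 1270 bp, and the ranges of the compartments overlapped.

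The position of a peak in the list was also recorded, because it is the only other property the list gives. What the order stands for is not given in the sources used here, so position is described without reading it as strength. The median line was 5443 for the 35 genes, 3311 for the cytosolic and 11916 for the mitochondrial genes, and 10162 for all genes with a promoter-proximal peak. Within lines 1 to 13485 of the 26970 lines, 26 of the 35 genes had a promoter-proximal peak (74.3%, interval 57.9 to 85.8), against 36.4% of all protein-coding genes. The share was 49.1% among CpG-rich promoters. Among all genes with a promoter-proximal peak it was 65.0%, which is inside the interval. By compartment the 26 genes were 16 of 19 cytosolic (84.2%) and 10 of 16 mitochondrial genes (62.5%), a difference of 21.7 points with an interval from -7.20 to 47.7 that includes 0.

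The first 2697 lines held the peaks of 10 synthetase genes. The cytosolic ones were CARS1, FARSA, GARS1, HARS1, LARS1, MARS1, TARS1 and YARS1, and the mitochondrial ones HARS2 and RARS2. HARS2 was there through the peak it shares with HARS1. Among all genes with a promoter-proximal peak, 15.3% had it in those lines. The latest of the 35 were AARS1 at line 21871, QARS1 at line 21252 and NARS2 at line 21192.

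Set side by side for each amino acid, the cytosolic gene had the earlier peak in 10 of 13 pairs and the mitochondrial gene in 2, alanine and arginine, with 1 tie at histidine. The leucine pair was far apart, with LARS1 at line 235 and LARS2 at line 12902. For alanine the order was turned, with AARS1 at line 21871 and AARS2 at line 5832. Width was less regular: the cytosolic peak was wider in 8 pairs and the mitochondrial in 4 (isoleucine, methionine, serine and tryptophan). The largest gap was at valine, with 2126 bp at VARS1 and 1027 bp at VARS2.

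**Figure D2:**
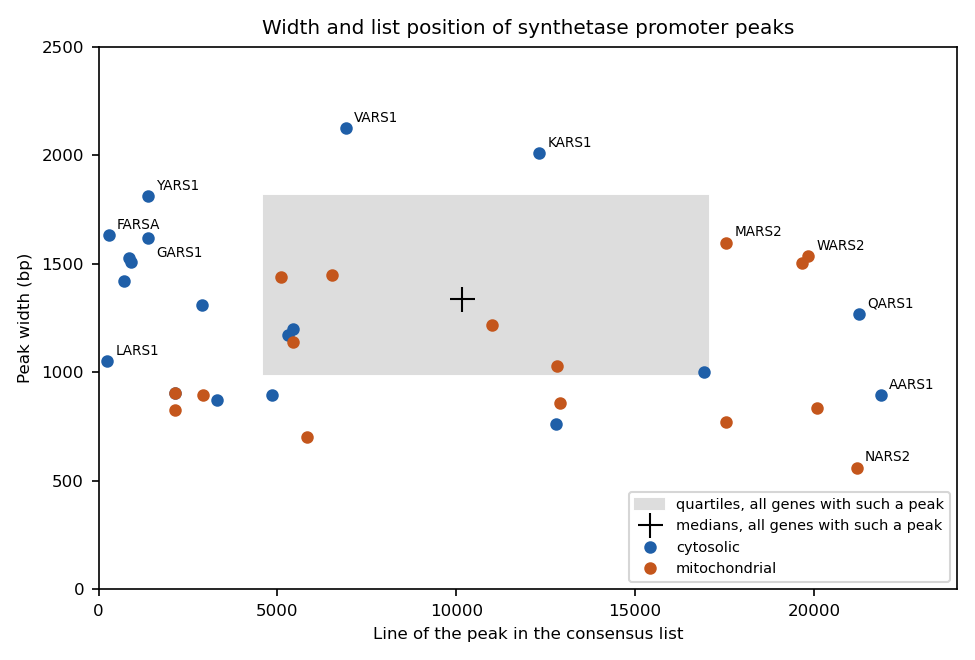
Width in bp (y axis) against line in the consensus list (x axis) of the promoter-proximal peak nearest each synthetase TSS, with cytosolic genes in blue and mitochondrial genes in orange; the grey box spans the quartiles and the cross marks the medians over the 11111 genes with such a peak. LARS1 stands at line 235 and AARS1 at line 21871, and the widths run from 560 to 2126 bp.

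To place these shares beside other translation genes, the ribosomal protein genes were counted in the same way. A promoter-proximal peak was found at 81 of 86 cytosolic (94.2%) and 74 of 78 mitochondrial ribosomal protein genes (94.9%). The synthetase share was higher by 5.81 points (interval -4.61 to 12.9) and 5.13 points (interval -5.24 to 12.5), and both intervals include 0. In lines 1 to 13485 the cytosolic ribosomal protein genes reached 93.0%, and the synthetase share was lower by 18.7 points, with a signed difference of -18.7 and an interval from -35.5 to -5.01 that excludes 0. Against the mitochondrial ribosomal protein genes (79.5%) the difference was -5.20 points, with an interval from -23.2 to 10.2.

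**Figure D3:**
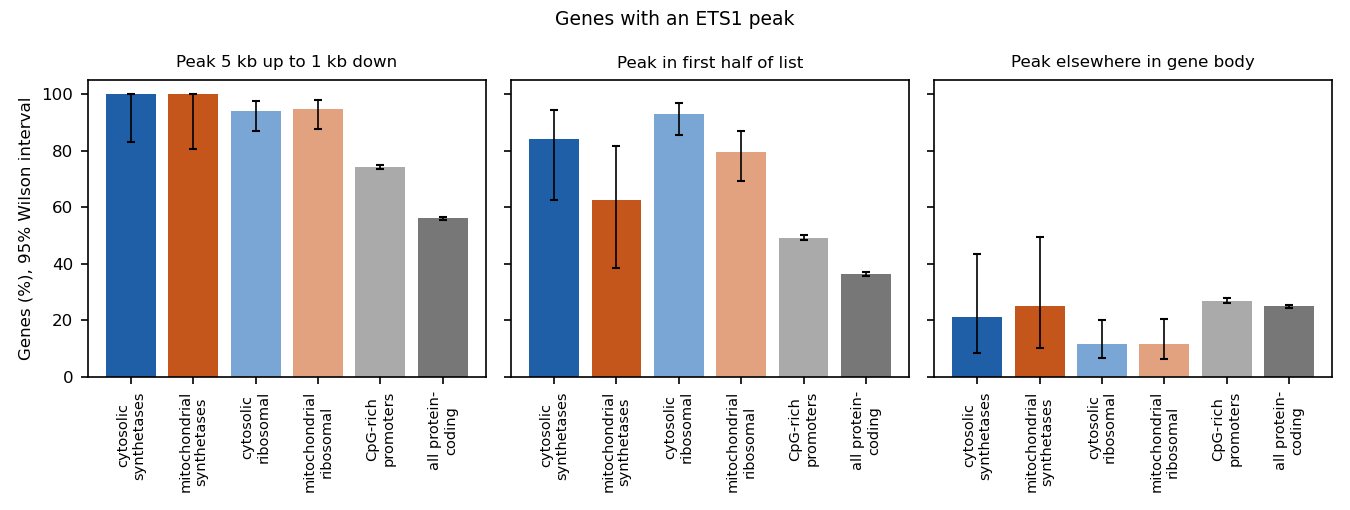
Percent of genes (y axis, bars with 95% Wilson intervals) with a promoter-proximal peak, with such a peak in lines 1 to 13485 of the list, and with a peak elsewhere in the gene body, for the synthetase and ribosomal protein genes of either compartment, genes with CpG-rich promoters and all protein-coding genes. Both synthetase groups stand at 100% in the left panel, where all protein-coding genes stand at 56.0%.

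Some of these peaks lay in promoters shared with a neighbour. A protein-coding neighbour that started on the opposite strand within 1 kb upstream was found for 8 of 35 genes (22.9%, interval 12.1 to 39.0), against 9.45% of all protein-coding genes. The share was 13.2% among CpG-rich promoters and 15.6% among genes with a promoter-proximal peak. It was 15.1% of cytosolic and 33.3% of mitochondrial ribosomal protein genes. All of these except the 9.45% lay inside the interval. HARS1 and HARS2, the cytosolic and mitochondrial histidyl enzymes, were each other's neighbours, with TSSs 85 bp apart under a peak of 903 bp at chr5:140070592-140071494. KARS1 faced TERF2IP, which encodes the telomere protein RAP1, at 108 bp, and RARS2 faced ORC3, a subunit of the origin recognition complex, at 148 bp. SARS2 faced MRPS12, a protein of the mitochondrial ribosome, at 181 bp.

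The remaining pairs were wider apart. YARS1 and S100PBP started 295 bp apart, EARS2 and UBFD1 377 bp apart, and FARS2 and LYRM4, a factor of mitochondrial iron-sulfur cluster assembly, 563 bp apart. In every one of these pairs the same peak covered both starts, so the list cannot assign it to either gene. Counting any annotated transcript start, the WARS1 peak also covered one of WDR25 and the AARS1 peak one of DDX19B. With these, the peaks of 10 of 35 genes (28.6%) covered a start of another coding gene. This share was not counted over all genes. A separate peak, 9.85 kb upstream of the AARS1 TSS, lay 20 bp from another DDX19B start. Over all 1877 genes with an opposite-strand neighbour within 1 kb upstream, 92.4% had a promoter-proximal peak. By compartment the neighbours belonged to 3 cytosolic and 5 mitochondrial genes, a difference of -15.5 points (interval -41.9 to 12.2).

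The ETS core was then searched in the 300 bp from 250 bp upstream to 50 bp downstream of each TSS, on both strands. CCGGAA was present in 20 of 35 synthetase promoters (57.1%, interval 40.9 to 72.0), against 22.9% of all protein-coding promoters. Among CpG-rich promoters the share was 29.8%, and among genes with a promoter-proximal peak 33.1%. Genes with a divergent protein-coding neighbour reached 45.6%, and the ribosomal protein genes were at 57.0% for the cytosolic (difference 0.166 points, interval -18.9 to 18.4) and at 60.3% for the mitochondrial ones (difference -3.11 points, interval -22.3 to 15.4). Among the synthetases it was found in 12 of 19 cytosolic (63.2%) and 8 of 16 mitochondrial promoters (50.0%), a difference of 13.2 points with an interval from -18.0 to 41.4. A match describes letters in this window and was not tested as a binding site.

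The matches came to 33 sites when overlapping ones were joined, with the 3 sites of the HARS1 and HARS2 promoter counted for both genes. Of these, 23 lay within 100 bp of the TSS. At 11 genes there were 2 or more matches, with 4 at PARS2, the mitochondrial prolyl enzyme printed above. No match was found in 15 promoters, which include AARS1, EPRS1, FARSB, IARS1, LARS1, TARS1 and WARS1 among the cytosolic genes. The mitochondrial ones were AARS2, FARS2, IARS2, LARS2, NARS2, VARS2, WARS2 and YARS2. All of these had a promoter-proximal peak, and some of the earliest peaks in the list, those of LARS1 and TARS1, were among them.

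The share depended on where the letters were sought. Within 150 bp of the peak midpoint CCGGAA was present at 14 of 35 genes (40.0%), against 27.8% of all genes with a promoter-proximal peak, and over the whole peak, a search added after the data had been seen, at 25 of 35 (71.4%) against 63.4%. The longer form CCGGAAGT was in 6 synthetase promoters (17.1%) and 6.17% of all. It contains the shorter motif, so its matches are a subset.

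Of the other motifs, the GC box GGGCGG was in 26 of 35 promoters (74.3%), against 61.5% of all protein-coding promoters and 80.5% of the CpG-rich ones. The CCAAT box was in 17 (48.6%), against 36.0%. AAGATGGCG, a form of the YY1 motif, was in 5 promoters, those of FARSA, KARS1, NARS1, WARS2 and YARS2 (14.3%, against 2.86%). The ribosomal protein genes had similar shares, 10.5% for the cytosolic and 16.7% for the mitochondrial ones. GCATGCGC, a form of the NRF1 motif, was in 3 promoters (8.57%, against 4.27%), all mitochondrial, MARS2, VARS2 and YARS2. NRF1 is known as a regulator of nuclear genes for mitochondrial proteins. The motif was in 0 of 19 cytosolic synthetase promoters, with an interval from 0 to 16.8%. Among ribosomal protein genes it was in 6.98% of the cytosolic and 8.97% of the mitochondrial ones, so no such split was seen there.

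TGATGNAAT, which ATF4 is known to bind in the response to amino acid shortage, was in 2 promoters, GARS1 and TARS1 (5.71%, against 0.589% of all promoters). TGACGTCA was in LARS1 alone (2.86%, against 2.68%). With counts this small the shares of single motifs are loosely bounded.

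**Figure D4:**
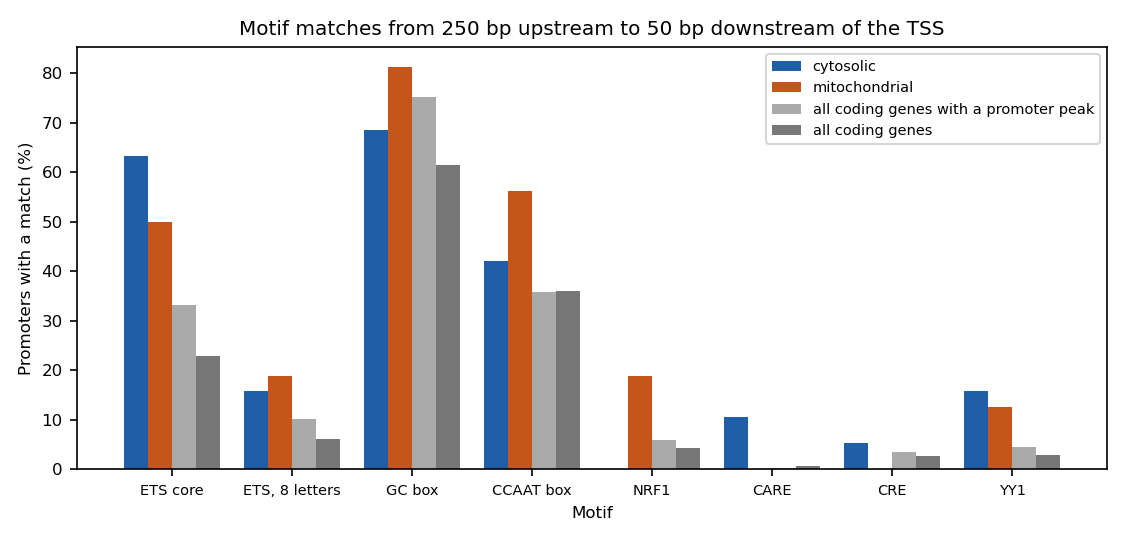
Percent of promoters (y axis) with at least 1 match to each of 8 motifs (x axis), from 250 bp upstream to 50 bp downstream of the TSS, for cytosolic and mitochondrial synthetase genes, all protein-coding genes with a promoter-proximal peak and all protein-coding genes. The ETS core is in 63.2% of cytosolic and 50.0% of mitochondrial promoters and in 22.9% of all. Among the synthetases the NRF1 motif is in 3 of 16 mitochondrial and 0 of 19 cytosolic promoters.

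Beyond the promoter, 8 of 35 genes had a peak elsewhere in the gene body (22.9%, interval 12.1 to 39.0), close to the 24.9% of all protein-coding genes. These were 4 of 19 cytosolic and 4 of 16 mitochondrial genes. The bodies held 11 peaks, 0.0529 per 10 kb of body against 0.0769 over all protein-coding genes, and 7 of them lay more than 1500 bp from any annotated TSS. CARS1 had 2, one in intron 7 and one in intron 20, of 1095 and 1462 bp. FARS2, whose gene spans 568 kb, had 2 narrow ones, of 352 bp in intron 4 and 804 bp in intron 6.

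WARS2 had 2, of 282 bp in intron 1 and 491 bp in intron 2. FARSA, VARS1, YARS1, EARS2 and VARS2 had 1 each, which in VARS1 lay in exon 4 and in FARSA in exon 13. No gene of the multisynthetase complex had one, 0 of 7 against 4 of the other 12 cytosolic genes, a difference of -33.3 points with an interval from -60.9 to 7.12.

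In the 50 kb flanks, 30 of 35 genes had a peak (85.7%, interval 70.6 to 93.7), against 69.4% of all protein-coding genes and 80.6% of those with a promoter-proximal peak. The median was 2 per gene, with a range from 0 to 11, against 1 over all protein-coding genes and also 2 over those with a promoter-proximal peak. The flanks held 104 distinct peaks, of which 60 (57.7%) lay within 1 kb of the TSS of another protein-coding gene. A further 25 were more than 1500 bp from any TSS. Neither count was made for the flanks of other genes, so neither is read as a feature of these flanks. Most peaks in body and flanks together were counted at FARSA (12), SARS1 (11), VARS1 (11), HARS1 (8), CARS1 (7) and MARS1 (7).

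These counts differed in kind. At FARSA, 8 of the 11 flank peaks were at other genes' starts, and at VARS1 7 of 10. At SARS1, the seryl enzyme, only 2 of 11 were, and 5 of the others lay nearest a TSS of CELSR2, a cadherin of cell polarity. The widest of the SARS1 flank peaks, of 2577 bp, had its midpoint 2116 bp beyond the gene end and stood at line 1271.

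HARS1 and HARS2 shared 6 of their flank peaks. Among them were 3 narrow peaks of 393, 726 and 507 bp with midpoints 30, 29 and 67 bp from the starts of VTRNA1-1, VTRNA1-2 and VTRNA1-3, the vault RNA genes, which RNA polymerase III transcribes. EPRS1 and IARS2 lie head to head, and each had only the other's promoter peak in its flank, 48.1 and 47.7 kb upstream. RARS1, TARS1, MARS2 and NARS2 had no peak in body or flanks, so that their promoter-proximal peak was the only one within 50 kb.

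**Figure D5:**
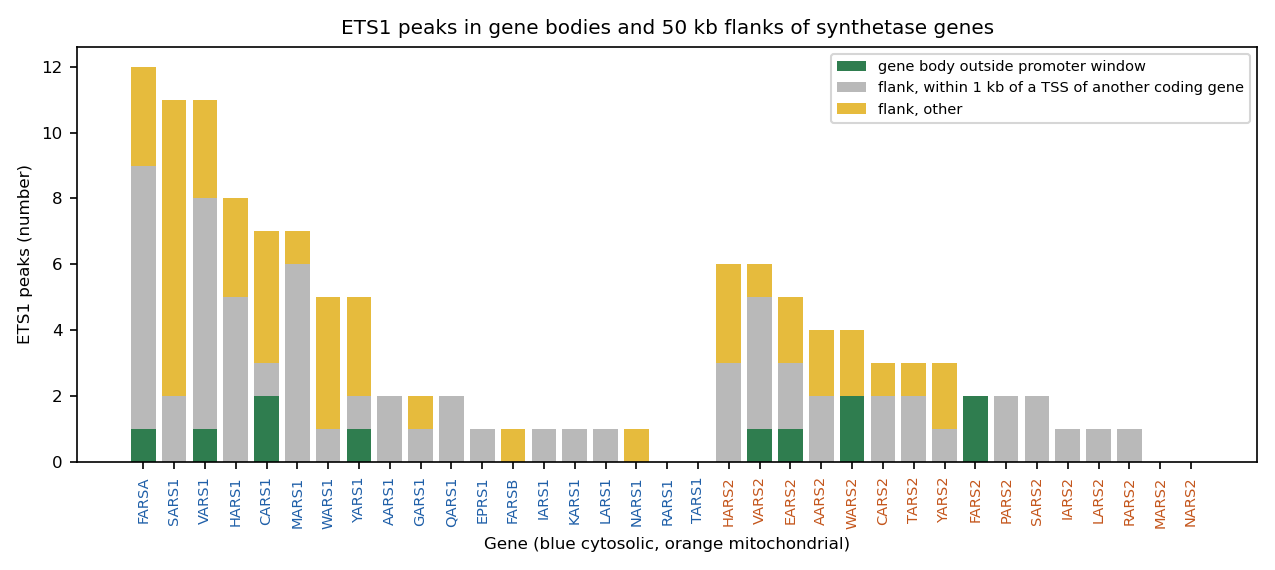
Number of ETS1 peaks (y axis) in the gene body outside the promoter window and in the 50 kb flanks of each synthetase gene (x axis), with flank peaks split by whether they lie within 1 kb of the TSS of another protein-coding gene. FARSA has 12, SARS1 and VARS1 have 11 each, and RARS1, TARS1, MARS2 and NARS2 have none.

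The wider tRNA-charging pathway was described with 20 further genes. A promoter-proximal peak was present at 18 of them (95% interval of the share 69.9 to 97.2%). All 20 have a CpG-rich promoter, for which the share over protein-coding genes was 74.2%. All 3 scaffold genes of the multisynthetase complex, AIMP1, AIMP2 and EEF1E1, had one, of 1167, 1308 and 840 bp. So did the 3 genes of the mitochondrial amidotransferase that makes glutaminyl-tRNA, QRSL1, GATB and GATC, of 911, 699 and 961 bp. Of the genes that sense or answer uncharged tRNA, the kinase gene EIF2AK4 had a peak of 1136 bp, the factor ATF4 one of 1632 bp and its target ASNS, the asparagine synthetase, one of 736 bp. The 2 genes without a peak were DTD2, which clears mischarged tRNA, and EEF1A2, the form of elongation factor 1A known from muscle and neurons, whereas EEF1A1, the widely expressed form, had 2.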

How the data were processed

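The authors immunoprecipitated ETS1 from SCC25 chromatin 3 times, with antibody C20 in 2 samples and 501A in the other. Reads were aligned to hg19 with Bowtie 1.1.1, keeping those with a unique locus, merged with SAMtools 1.3 where pooled, and peaks were called with MACS2 against a merged input before IDR. The authors deposited 1 list of 26970 peak positions (start and end in bp), with no score and no other unit. Reads without a unique locus are thus absent, and the depth per sample is not given by the list.

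Positions were converted to a 1-based count and related to GENCODE 44 on GRCh37, whose nuclear sequence is that of hg19. No nuclear peak ran past a chromosome end, and mitochondrial peaks were not used. CpG-rich promoters had a GC fraction above 0.5 and a CpG observed/expected ratio above 0.6 over 1 kb at the TSS. Shares carry 95% Wilson intervals and differences Newcombe intervals. No test across samples was possible. Members, gene lists and motifs were chosen with earlier results of these data known. Synthetase genes were all eligible to be named, with values for those without a peak, with several, with the 5 widest peaks, with the most body and flank peaks or with shared promoters. The 6-mer and window alternatives are given in the closing section. SARS1 flank peaks near CELSR2, the vault RNA peaks and the FARSA peak at CALR were singled out after their values were seen. The code recovered planted peaks and motifs when tested on simulated data. Python 3.11.15 was used with pysam 0.24.0, samtools 1.23.1, pandas 2.3.3, numpy 2.4.6, matplotlib 3.10.9 and scipy 1.17.1.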

Additional observations from a re-analysis of the deposited data

How the results depend on the processing

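Of 25 alternatives to the 8 results, 20 stayed within the 95% interval, or for medians within the quartiles over members, of the reported value. The other 5 moved. Restricting the list to lines 1 to 13485 gave a promoter-proximal share of 74.3% (all protein-coding genes 36.4%), a cytosolic minus mitochondrial difference of 21.7 points and a gene body share of 8.57% (all 14.6%), each from fewer peaks by construction. Of all genes with a promoter-proximal peak in the full list, 65.0% had one in these lines. The ETS motif share was 17.1% with CCGGAAGT (all 6.17%) and 40.0% in the 300 bp at the peak midpoint (27.8% of all genes with such a peak). A window of 500 bp either side of the TSS gave 94.3% (all 46.8%). No paired analysis was possible because the list pools the 3 samples, and for the same reason no replicate could be left out. The list holds no counts, so the smallest occupancy it could detect is unknown, and shared promoters cannot be divided between their genes.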
